A study of Homo sapiens with 4 samples.

Results

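The 7SK RNA (RN7SK) and 8 protein-coding genes that hold or release the elongation kinase P-TEFb were followed in UMSCC74B, a cell line established from a squamous carcinoma of the head and neck. The 9 genes were chosen by name as the 7SK particle and the P-TEFb subunits, with AFF4 added, and with earlier values of the PRMT5 KD against control contrast known. RN7SK in particular had been seen to differ. All 9 were found among 29655 gene names in the count tables, and all 9 were among the 14635 names that passed the filter on low counts. The study silenced the arginine methyltransferase PRMT5 to ask which transcripts depend on it. The samples are 2 libraries from cells given control shRNA (labelled wild type) and 2 from cells given PRMT5 shRNA (labelled PRMT5 KD), all from total RNA collected after 72 h. The sample labels describe plasmid transfection, whereas the methods of the study describe lentiviral particles, and neither states whether the libraries of a group came from separate cultures.

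P-TEFb is the kinase CDK9 bound to cyclin T1 or T2. It phosphorylates RNA polymerase II and the pausing factors NELF and DSIF, and so lets a paused polymerase move into the gene body. Much of the P-TEFb in a cell is kept inactive in a particle built on 7SK RNA, in which MEPCE caps the 5' end of the RNA, LARP7 holds its 3' end, and HEXIM1 or HEXIM2 blocks the kinase. When P-TEFb leaves the particle it can join the super elongation complex, for which AFF4 is the scaffold.

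RN7SK is transcribed by RNA polymerase III and carries no poly(A) tail. RefSeq places it on the plus strand of chromosome 6 of GRCh38 from 52995620 to 52995951, a length of 332 bases, and GENCODE release 44 annotates 52995621 to 52995948 as an snRNA gene. Both ends of the RNA are shown because the proteins followed here bind them. In the first 100 bases (chr6:52995620-52995719), read as DNA on the plus strand, every copy of the motif GATC is in capitals. HEXIM1 recognises GATC repeats of a hairpin there, and the capitals do not show which copies belong to that hairpin. In the last 40 bases (chr6:52995912-52995951) the capitals mark the terminal run of 4 T, which is the run of U that LARP7 grips in the RNA.
RN7SK 5' end: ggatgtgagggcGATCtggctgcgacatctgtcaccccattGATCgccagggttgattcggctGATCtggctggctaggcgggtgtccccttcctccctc
RN7SK 3' end: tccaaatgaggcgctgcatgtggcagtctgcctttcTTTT
The motif GATC, which reads the same on both strands, starts at bases 13, 42 and 64 and does not recur in the rest of the RNA. At least 3 copies stand in the first 100 bases of 0.34% of 59709 canonical GENCODE transcripts, and at least 1 copy in 23.2%. The bases were read from the reference genome and not from these libraries.

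Totals ran from 52185265 to 65964523 estimated counts per library. Ribosomal RNA, mitochondrial included, took between 14.2% and 15.3% of each control library, against 26.2% and 18.02% where PRMT5 KD is the label. PRMT5 itself, on chromosome 14 from 22920525 to 22929408, stood at 71.4 and 63.6 CPM (counts scaled by library size) in control, against 106 and 121 CPM under the PRMT5 KD label. The transcript was thus higher where it was to be silenced (log2 fold change 0.75, standard error 0.13, FDR = 0.00344 by edgeR), and each direction below is by the label. These counts do not give the level of the PRMT5 protein. Of the 6 squamous epithelial markers looked up, KRT5, KRT6A and KRT14 had between 0 and 22 counts in every library, and all 6 together summed to 2.94 to 5.54 CPM. Within that sum the genes differed in direction, with TP63 at 4.17 and 4.98 CPM in control against 1.39 and 2.44 CPM, KRT17 at 5 and 6 counts against 53 and 71, and SFN at 3 and 5 counts against 28 and 86. The 3 fibroblast markers COL1A1, COL1A2 and PDGFRA summed to 189.9 and 220.9 CPM in control and to 28.3 and 30.8 CPM under the PRMT5 KD label. The 3 endothelial markers summed to 7.64 and 10.6 CPM against 0.806 and 0.373 CPM, while the 4 leukocyte markers stayed at or below 0.196 CPM and CD3E had 0 counts. The part of these shifts in the results was not tested.

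RN7SK was less abundant in the libraries labelled PRMT5 KD, while the transcripts of LARP7 and MEPCE, the 2 proteins that bind it throughout, were more abundant. HEXIM1, CCNT2 and AFF4 moved little against their spread, and CDK9 and CCNT1 were somewhat lower. A name was called where edgeR's quasi-likelihood test gave an FDR under 0.05 and the log2 fold change was at least 0.5 in size. By that rule 3 of the 9 genes were called, 2 higher (LARP7 and MEPCE) and 1 lower (RN7SK), against 45.7% of all names tested, of which 22.6% were called higher and 23.1% lower. The groups did not overlap for 7 of the 9 genes, against 79.5% of all names tested. Since the genes were picked with this contrast in view, nothing is read from these counts, and their fold changes stand as a description with no p. The median log2 fold change of the 9 was -0.11, beside 0.0090 over all names tested. In bulk RNA, a change in the RNA of each cell and a change in the mix of cells cannot be told apart.

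**Figure D1:**
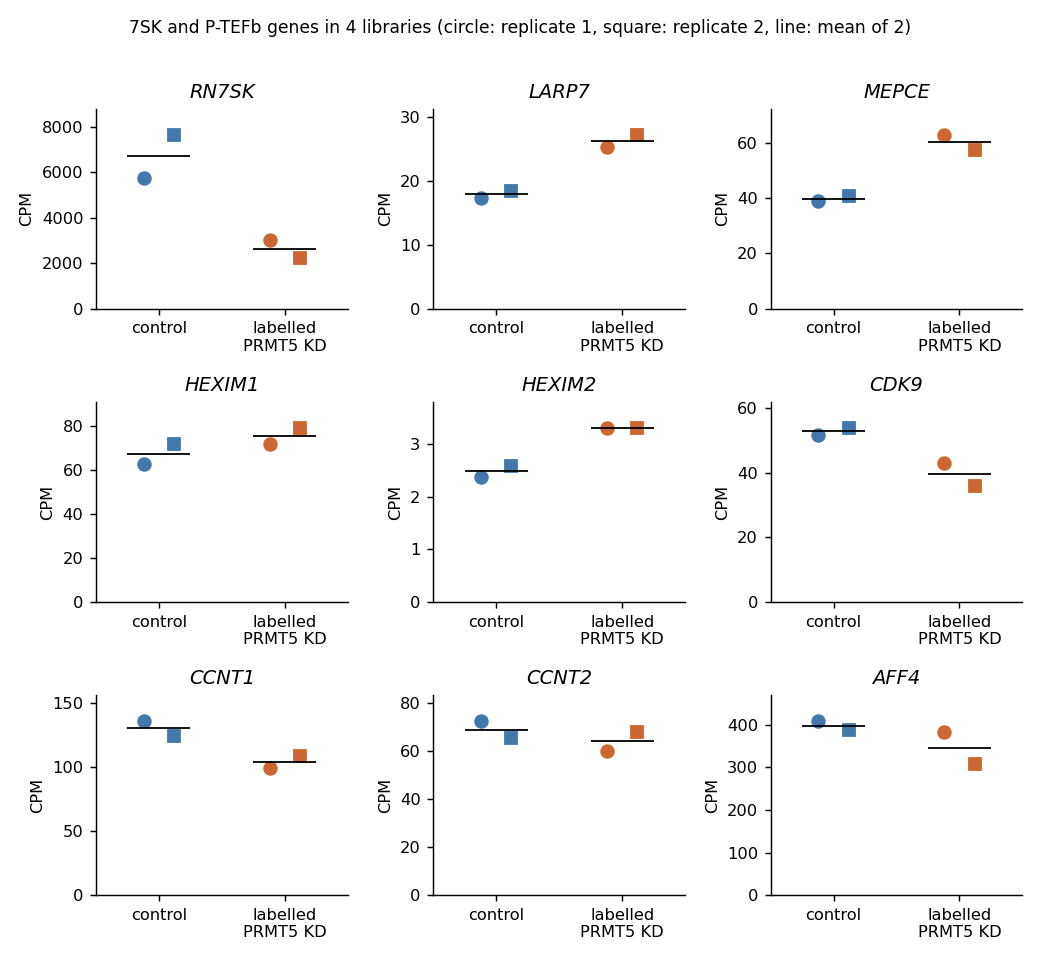
Levels in CPM (linear axes from 0, each panel on its own scale) of the 9 genes in the 4 libraries, with circles for replicate 1, squares for replicate 2 and a line at the mean of 2. RN7SK lies at 5763 and 7652 CPM in control and at 3026 and 2221 CPM under the PRMT5 KD label, and the points of HEXIM1 and CCNT2 overlap between the groups.

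RN7SK, the RNA scaffold of the particle, was given 301137 and 507396 counts by the control libraries, against 180256 and 131027 by those labelled PRMT5 KD. Scaled by TMM, these are 5763 and 7652 CPM against 3026 and 2221 CPM. Both control libraries thus lay above both others. The means were 6707 ± 1336 CPM and 2624 ± 569 CPM (SD, n = 2 each), so the control mean was 2.56 times the other, a log2 fold change of -1.35 with a standard error of 0.25. RN7SK was among the most abundant transcripts throughout, in places 7 and 6 of the names tested in control, against 9 and 11 under the PRMT5 KD label. It also had the widest spread within groups of the 9 genes, with replicate 2 higher than replicate 1 by 0.41 on the log2 scale in control, and a difference of -0.45 under the PRMT5 KD label.

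The share of RN7SK depends on how much ribosomal RNA a library holds, so it was also taken over the remaining counts. Leaving ribosomal RNA aside, RN7SK made up 0.681% and 0.897% of the control libraries, against 0.380% and 0.289% of those labelled PRMT5 KD. The groups again did not overlap. When names of ribosomal RNA were dropped before scaling the log2 fold change was -1.37, and on the scale of protein-coding names alone it was -1.41, a value with no test. Leaving out each library in turn gave values between -1.59 and -1.14.

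Other short RNAs without a poly(A) tail were read beside RN7SK, since the recovery of such RNAs differs from that of mRNA. Of 19 looked up, 18 were in the tables and 7 passed the filter, of which 4 were called lower and 0 higher, against the background of 23.1% and 22.6%. The median log2 fold change of the 7 was -0.58. RN7SL1 and RN7SL2, near-identical copies of the signal recognition particle RNA, which acts in the cytoplasm, were not called. RN7SL1 had 2596 and 3557 CPM in control and 3337 and 2748 CPM under the PRMT5 KD label, with groups that overlap (log2 fold change -0.016, standard error 0.23, FDR = 0.957). RN7SL2 had a log2 fold change of 0.097 (FDR = 0.713). How the estimated counts divide reads between the copies is uncertain, so their sum was used: RN7SK had 1.36 and 1.35 counts for each count of RN7SL1 and RN7SL2 in control, against 0.545 and 0.492 where PRMT5 KD is the label. That ratio was closer between replicates than the CPM of RN7SK, and its control mean was 2.62 times the other.

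The remaining short RNAs lay lower under the PRMT5 KD label. RMRP, the RNA of the RNase MRP enzyme, had 585 and 786 CPM in control against 493 and 319.7 CPM (log2 fold change -0.75, FDR = 0.0411), a call that was held only when PRMT5 KD replicate 1 was the library left out. RPPH1, the RNA of RNase P, went from 1524 and 2058 CPM to 1337 and 1061 CPM (-0.58, FDR = 0.0568) and was not called, though it was called with DESeq2, with total counts as the scale and after the length and GC correction. The telomerase RNA TERC, made by RNA polymerase II, fell from 37.2 and 37.3 CPM to 24.6 and 25.3 CPM (-0.58, FDR = 0.00577). The Y RNA RNY3 (-1.73, FDR = 0.00882) and the brain cytoplasmic RNA BCYRN1 (-2.32, FDR = 0.00594) fell too, at no more than 2.83 CPM in any library. The calls of TERC and RNY3 were lost without control replicate 2, and that of BCYRN1 without control replicate 1. BCYRN1 derives from an Alu repeat, so reads from other Alu copies may be counted in it. Whether the change of RN7SK differs from that of RMRP or RPPH1 was not tested.

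**Figure D2:**
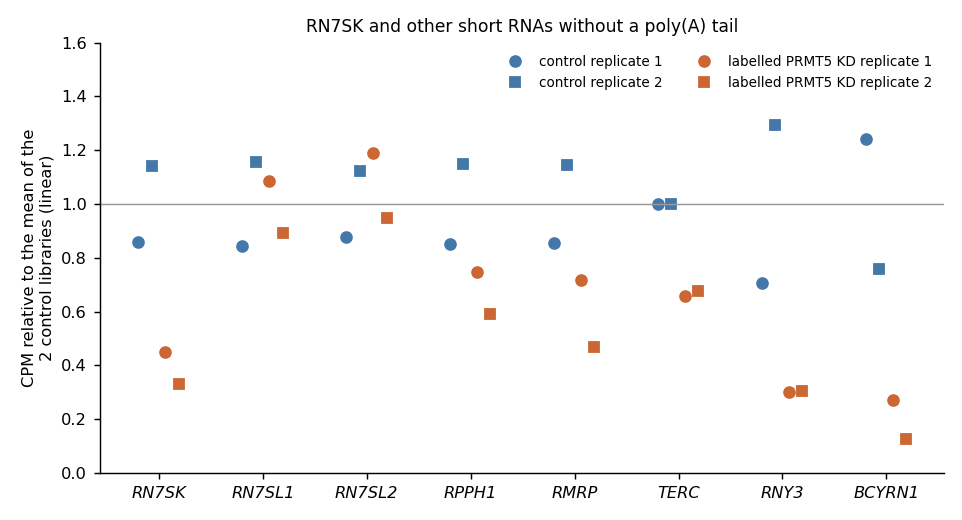
CPM of RN7SK and of 7 other short RNAs in each library, relative to the mean of the 2 control libraries (linear axis from 0), in blue for control and orange for libraries labelled PRMT5 KD. RN7SL1 and RN7SL2 lie around 1 in both groups, and the orange points of RN7SK, RPPH1, RMRP, TERC, RNY3 and BCYRN1 lie below their blue points.

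The transcripts of both proteins that sit on 7SK RNA permanently were higher. MEPCE, the methylphosphate capping enzyme, lies on the plus strand of chromosome 7 from 100428322 to 100434126. It had 38.9 and 40.8 CPM in control and 62.9 and 57.4 CPM under the PRMT5 KD label (39.8 ± 1.34 and 60.1 ± 3.90 CPM, SD, n = 2 each). The groups were apart by more than the gap between replicates, and the log2 fold change was 0.59 with a standard error of 0.11. Without control replicate 1 the value was 0.53 and no longer a call.

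LARP7, a La-related protein that shields the 3' end of 7SK RNA from decay, lies on the plus strand of chromosome 4 from 112637077 to 112657696. Its levels were 17.4 and 18.5 CPM in control and 25.3 and 27.3 CPM under the PRMT5 KD label, again with no overlap. The log2 fold change was 0.55 with a standard error of 0.13, just above the threshold of 0.5, and it fell to 0.27 with no call after a correction for transcript length and GC content. The call was also lost without control replicate 1 (0.48), without control replicate 2 (0.60), without PRMT5 KD replicate 2 (0.49) and on protein-coding names alone (0.49).

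The ratio of the MEPCE to the LARP7 transcript overlapped between the groups, whereas both transcripts were higher relative to RN7SK. Per kb of transcript, MEPCE stood at 1.67 and 1.65 times LARP7 in control and at 1.85 and 1.57 times under the PRMT5 KD label. RN7SK per kb stood at 2128 and 2661 times LARP7 in control and at 768 and 523 times under the PRMT5 KD label. Against MEPCE it went from 1275 and 1614 times to 414 and 333 times. Fragments from an RNA as short as RN7SK are counted differently from those of mRNA, so the size of these ratios cannot be compared with other pairs. Fold changes in these libraries also followed transcript length, as given below. The change of the ratios may therefore hold an effect of length, which was not tested.

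HEXIM1, the main inhibitor that 7SK RNA loads onto P-TEFb, lies on the plus strand of chromosome 17 from 45148475 to 45152099. It had 62.7 and 71.9 CPM in control and 71.6 and 79.1 CPM under the PRMT5 KD label, and the groups overlapped. The log2 fold change of 0.16 had a standard error of 0.12. HEXIM1 is known as a gene that rises when drugs set P-TEFb free. RN7SK per kb went from 1015 and 1176 times HEXIM1 in control to 467 and 310.5 times under the PRMT5 KD label.

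HEXIM2, the paralog that can take the place of HEXIM1, lies further along the same strand of chromosome 17, from 45160700 to 45170040. It was the least expressed of the 9, with 124 and 172 counts in the control libraries, against 197 and 195 in the others. These are 2.37 and 2.59 CPM against 3.31 and 3.31 CPM, with no overlap, and a log2 fold change of 0.41 whose standard error of 0.23 was among the largest of the 9 genes. Per kb, HEXIM1 exceeded HEXIM2 by 10.5 and 11.0 times in control and by 8.57 and 9.47 times under the PRMT5 KD label, so HEXIM1 was the prevailing transcript in every library.

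The kinase and its cyclins lay on the other side of 0. CDK9, on the plus strand of chromosome 9 from 127785679 to 127790792, had 51.7 and 53.8 CPM in control and 43.0 and 36.0 CPM under the PRMT5 KD label. The groups did not overlap, and the log2 fold change was -0.42 with a standard error of 0.13, which is short of the threshold of 0.5. It was past it without PRMT5 KD replicate 1, at -0.55.

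CCNT1 (cyclin T1), on the minus strand of chromosome 12 from 48688458 to 48716998, had 135 and 124 CPM in control and 99.4 and 108 CPM under the PRMT5 KD label. The groups did not overlap, and the log2 fold change was -0.32 with a standard error of 0.12. CCNT2 (cyclin T2), on the plus strand of chromosome 2 from 134918235 to 134959342, had 72.3 and 65.3 CPM in control and 60.1 and 67.8 CPM under the PRMT5 KD label. Here the groups overlapped and the log2 fold change was -0.11 with a standard error of 0.12. Per kb, CCNT1 exceeded CCNT2 by 1.91 and 1.94 times in control and by 1.68 and 1.63 times under the PRMT5 KD label.

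AFF4, the scaffold of the super elongation complex, lies on the minus strand of chromosome 5 from 132875395 to 132963634 and was the most abundant of the protein-coding genes followed. It had 408 and 387 CPM in control and 382 and 308 CPM under the PRMT5 KD label. The groups did not overlap, but the libraries labelled PRMT5 KD lay further from each other than the higher of them lay from control. The log2 fold change was -0.20 with a standard error of 0.15.

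The order of the 8 protein-coding genes by level per kb changed between the groups. In control it ran from AFF4 (41.7 CPM per kb) through CDK9 (21.2), CCNT1 (19.1), HEXIM1 (18.6), MEPCE (14.1), CCNT2 (9.94) and LARP7 (8.51) to HEXIM2 (1.73). The libraries of CCNT1 and HEXIM1 overlapped, so these neighbours could not be ranked, and the other neighbours did not overlap. Under the PRMT5 KD label it ran from AFF4 (36.2) through MEPCE (21.3), HEXIM1 (20.8), CDK9 (15.9), CCNT1 (15.3), LARP7 (12.5) and CCNT2 (9.24) to HEXIM2 (2.30). MEPCE had moved from place 5 to place 2 and CDK9 from place 2 to place 4. In that order MEPCE and HEXIM1 overlapped, as did CDK9 and CCNT1.

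Fold changes in these libraries followed transcript length, which bears on genes that differ as much in length as these. Over 12970 protein-coding names in 10 groups by canonical transcript length, the median log2 fold change went from 0.31 for the shortest to -0.30 for the longest. CCNT1 (6788 nt) and CCNT2 (6920 nt) lie in group 9, whose median was -0.13, and AFF4 (9536 nt) lies in the last group. LARP7 (2107 nt) lies in group 3 and MEPCE (2822 nt) in group 4, each with a median of 0.16. After a correction for length and GC content, AFF4 moved to 0.10 and CCNT2 to 0.016, while MEPCE was at 0.62, CDK9 at -0.49 and RN7SK at -1.56. CCNT1 went from -0.32 to -0.16. The change of MEPCE was thus not reduced by the correction, while those of CCNT1, CCNT2, AFF4 and LARP7 were. CDK9 (2483 nt) also lies in group 4, whose median was above 0. Removing the trend with length lowers such a gene, so nothing is read from the lower value of CDK9. HEXIM1 (to 0.14) and HEXIM2 (to 0.29) were reduced too. RN7SK (328 nt) has the length of the shortest group, whose median was above 0. A lower value of RN7SK after the correction was thus built in, and nothing is read from it.

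**Figure D3:**
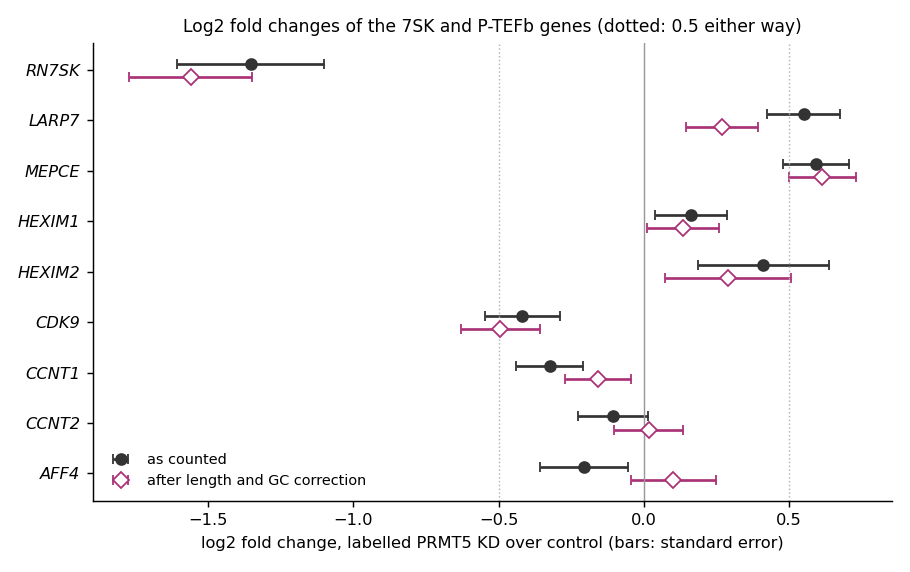
Log2 fold changes of the 9 genes between libraries labelled PRMT5 KD and control, as counted (black circles) and after correction for transcript length and GC content (open diamonds), with standard errors as bars and dotted lines at the threshold of 0.5. LARP7 moves from 0.55 to 0.27 and AFF4 from -0.20 to 0.10, while MEPCE stays near 0.6 and RN7SK goes from -1.35 to -1.56.

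Genes that act with the 7SK particle or on the same step of transcription were counted in 8 lists of proteins. Of 98 genes 97 were tested, 32 were called higher and 6 lower, and the median log2 fold change was 0.33. That is 33.0% higher and 6.19% lower, beside 22.6% and 23.1% of all names. The lists were written with earlier results of these data known, and no test of the lists as sets was made.

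Of 23 genes listed for RNA polymerase III and the 7SK promoter, 12 were called higher (52.2%, beside 22.6% of all names) and 0 lower. The median log2 fold change of the list was 0.51, while RN7SK, a product of that polymerase, was lower. The list also held SSB (0.55, called) and MAF1 (0.33, not called), which are neither subunits of the polymerase nor promoter factors. POLR3K, a small subunit of the polymerase, went from 4.52 and 4.16 CPM to 16.2 and 16.0 CPM (1.89, FDR = 0.000318). POLR3G, a subunit known from stem cells, went from 5.13 and 5.02 CPM to 12.9 and 19.0 CPM (1.65, FDR = 0.00131). SNAPC1, a subunit of the complex that binds the proximal element of the 7SK promoter, varied widely, with 116 and 59.4 CPM in control and 325 and 192 CPM under the PRMT5 KD label (1.56, FDR = 0.0126). Its call was held only when control replicate 1 was the library left out, and it was lost after the length and GC correction. After that correction 9 of the 23 were called higher, beside 3076 of 13661 names. With a library left out, the calls of BDP1, TBP, POLR3C, POLR3D, POLR3F and SSB were each lost in at least 1 fit.

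Of 10 genes for proteins that bind 7SK RNA outside the core particle, 4 were called higher (40%, beside 22.6% of all names) and 0 lower. After the length and GC correction 7 were called higher, beside 3076 of 13661 names. DDX21, a helicase of the nucleolus that can free P-TEFb from 7SK RNA, went from 212 and 169 CPM to 362 and 371 CPM (0.94, FDR = 0.00271). HNRNPA1, which binds 7SK RNA when P-TEFb and HEXIM1 have left, went from 155 and 148 CPM to 261 and 294 CPM (0.87, FDR = 0.00189). The splicing factor SRSF2, also found on 7SK RNA, rose as well (0.71, FDR = 0.00287). HNRNPA2B1, which binds 7SK RNA as HNRNPA1 does, had a log2 fold change of 0.11 (FDR = 0.528).

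Genes for the recruitment and release of P-TEFb were called higher for 3 of 9 (33.3%) and lower for 1 (11.1%). The shares over all names were 22.6% and 23.1%. PPM1G, a phosphatase that releases P-TEFb from the particle, rose from 51.2 and 46.5 CPM to 103 and 104 CPM (1.09, FDR = 0.000619). TRIM28, which tethers the particle to promoters, rose from 237 and 209.9 CPM to 444 and 476 CPM (1.04, FDR = 0.00133). PPP3CA, the catalytic subunit of the phosphatase calcineurin, fell from 135 and 137 CPM to 74.9 and 70.1 CPM (-0.91, FDR = 0.00100).

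**Figure D4:**
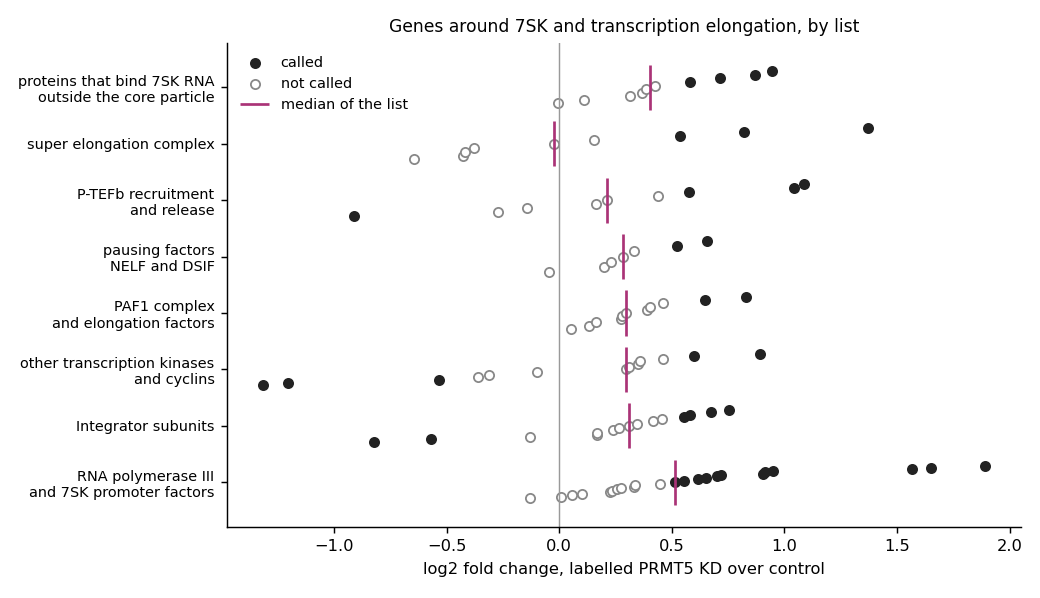
Log2 fold changes of 97 genes in 8 lists around 7SK RNA and transcription elongation, filled where called and open where not, with a bar at the median of each list. The RNA polymerase III list has the highest median, 0.51, and 12 of its 23 genes called higher (52.2%, beside 22.6% of all names).

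In the super elongation complex 3 of 9 tested genes were called higher (33.3%, beside 22.6% of all names) and 0 lower. The median log2 fold change of this list was -0.024. EAF1, a partner of the ELL elongation factors, rose from 57.9 and 45.3 CPM to 97.2 and 85.2 CPM (0.82, FDR = 0.00478). ELL rose from 32.7 and 31.0 CPM to 49.1 and 43.2 CPM (0.54, FDR = 0.0105), a call held only when PRMT5 KD replicate 2 was the library left out. AFF1, a paralog of AFF4, had a log2 fold change of -0.42 (FDR = 0.0946) and was not called. After the length and GC correction AFF1 was at -0.094 and AFF4 at 0.10. AFF3, of the same family, had -0.38 with groups that overlap and was not called.

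Of 7 pausing factors, among them substrates of P-TEFb, 2 were called higher (28.6%, beside 22.6% of all names) and 0 lower, which were NELFB (0.52, FDR = 0.00904) and SUPT4H1 (0.66, FDR = 0.00470), subunits of NELF and DSIF. The call of NELFB was held only when PRMT5 KD replicate 1 was the library left out. That of SUPT4H1 was lost without control replicate 1 and after the length and GC correction. SUPT5H, the large DSIF subunit that P-TEFb phosphorylates and PRMT5 is known to methylate, went from 102 and 99.5 CPM to 127 and 109.7 CPM (0.23, FDR = 0.147). Of 11 genes of the PAF1 complex and other elongation factors 2 were called higher (18.2%, beside 22.6% of all names) and 0 lower. After the length and GC correction 4 were called higher, with RTF1 (0.55) and SUPT6H (0.52) added. Without the correction the 2 called were SUPT16H (0.83, FDR = 0.00141) and SSRP1 (0.65, FDR = 0.00343). Both are the subunits of FACT, which moves histones ahead of the polymerase. Of the PAF1 complex, PAF1, CTR9, LEO1, CDC73, RTF1 and WDR61 were listed. None of them was called, except RTF1 after the length and GC correction.

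The other transcription kinases and cyclins were called in both directions, with 2 of 13 higher (15.4%) and 3 lower (23.1%). The shares over all names were 22.6% and 23.1%. CCNK, the cyclin of CDK12 and CDK13, rose from 42.6 and 40.8 CPM to 77.0 and 77.5 CPM (0.89, FDR = 0.00102). CDK19, a kinase of the Mediator complex, fell from 27.6 and 32.8 CPM to 15.1 and 9.17 CPM (-1.31, FDR = 0.00554). CCNL2, a cyclin L gene with a part in splicing, fell from 179 and 158 CPM to 70.7 and 75.4 CPM (-1.20, FDR = 0.000589). After the length and GC correction 2 of the 13 were called higher and 4 lower, beside 3076 and 3051 of 13661 names. CDK7 went from 0.60 to 0.27 there and lost its call. CCNL1, called at -0.53, lay between -0.68 and -0.40 with a library left out. Of the 15 Integrator subunits, which end transcription of paused polymerases, 4 were called higher (26.7%) and 2 lower (13.3%). Over all names 22.6% were called higher and 23.1% lower. After the length and GC correction 3 Integrator genes were called higher and 1 lower, beside 3076 and 3051 of 13661 names. INTS6 went from -0.57 to -0.39 there and VWA9 (INTS14) from 0.56 to 0.37, and both lost their calls. INTS2, called at 0.58, lay between 0.42 and 0.73 with a library left out. INTS7 rose (0.75, FDR = 0.00390), as did INTS5 (0.67, FDR = 0.00356), and INTS3, which also serves in DNA repair, fell (-0.82, FDR = 0.00236).

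The names whose profile over the 4 libraries lay nearest to that of RN7SK were ITFG3, TMEM150A, RTN2, MXRA7 and PRAF2, all protein-coding, among 9925 names whose mean log2 CPM reached 3. The measure was the distance between log2 CPM values centred on their mean, which ran from 0.095 to 0.134 on the log2 scale. ITFG3, the nearest, had 109 and 133 CPM in control and 54.3 and 41.4 CPM under the PRMT5 KD label. For HEXIM1 the nearest were UNC119, NIT2, PYGO1, ATG14 and ING4, at distances from 0.027 to 0.037. With 4 libraries such likeness is a description of these values only.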

How the data were processed

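RNA-seq was done on total RNA from 4 UMSCC74B libraries with a directional kit. The authors deposited one table of estimated counts (expected counts, not normalized) per library. The labels name Trim Galore, STAR, Salmon and GRCh38, without roles, and the study's methods name another counter that the decimals in the tables do not match. Entries turned into dates (28 of 29744 per table, 0.150% to 0.161% of the counts) were dropped. Rows were summed by gene name and rounded. Names were matched to GENCODE release 44 by symbol (21666) or unique RefSeq synonym (1542).

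Names reaching 0.5 CPM in 2 libraries of the same group went into edgeR 4.0.16 (R 4.3.3) with TMM over all these names, robust quasi-likelihood fits and Benjamini-Hochberg adjustment (FDR). Standard errors come from the F statistic. All names were kept because RN7SK is not protein-coding. Levels per kb use the Ensembl canonical transcript. The correction for length and GC content fits splines with 4 degrees of freedom per library. The procedure was tested on simulated data in which few names changed and no trend with length was set, unlike in these libraries. DESeq2 1.42.0, other scalings and filters, a replicate block and each library left out were alternatives.

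The 9 genes and all lists were chosen with earlier results of these data known. Named list genes are up to 3 called genes per list with the largest change, an average log2 CPM of at least 3 and groups without overlap, and every tested short RNA. HNRNPA2B1, AFF1, AFF3, SUPT5H, SUPT6H, SSB, MAF1 and the genes of the PAF1 complex were named after their values were seen. The same holds for BDP1, TBP, POLR3C, POLR3D and POLR3F, and for CDK7, CCNL1, INTS2, INTS6 and VWA9. With 2 libraries against 2 a two-sided exact permutation test cannot go below 0.333, so each FDR rests on the model across all names. The model sets the difference between groups against the spread between these libraries, which may be technical. One listed gene is not reported here.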

Additional observations from a re-analysis of the deposited data

How the results depend on the processing

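The number of names called (6691) ranged from 5780 to 7040 over the other tools, scalings, filters and corrections, was 3505 at a fold change threshold of 1, by its own construction, and lay between 4176 (without control replicate 2) and 6909 with a library left out, reaching 4459 without control replicate 1. Of the elongation and 7SK genes, 38 were called, 8 at that threshold, and between 25 (without control replicate 2) and 38 with a library left out. RN7SK kept its direction under 13 other settings, from -1.57 to -1.33. Among these, the scales of protein-coding names (-1.41) and of RN7SL1 and RN7SL2 (-1.39) gave a value with no test. RN7SK was chosen with this contrast in view, so these values describe the processing only. LARP7 lost its call after the length and GC correction (0.27, and 0.27 with the replicate block) and on protein-coding names alone (0.49). With a library left out it lay between 0.48 and 0.60, and MEPCE between 0.53 and 0.65. CDK9 reached a call at -0.50 under the length and GC correction with the replicate block. Its length group has a median above 0, so nothing is read from that call. With a library left out CDK9 lay between -0.55 and -0.30. CCNT2 (0.016, and 0.015 with the replicate block) and AFF4 (0.10 and 0.095) changed sign under that correction, without a call. Beyond the correction's own terms for length and GC, the causes were not tested.

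Deviations of same-numbered libraries correlated at -0.128 across names, so the numbers were not taken as pairs. The replicate block gave 6274 names called and 38 of the elongation and 7SK genes, and the crossed pairing, added after the data were seen, 6836 and 37. At 124 to 197 counts, HEXIM2 is the gene whose depth limits its value most.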
